A study of Mus musculus with 9 samples.

Results

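The genes described here encode the Golgi glycosyltransferases that start, branch, extend and cap mucin-type O-glycans and the terminal parts of other glycans. They were chosen by symbol: the numbered Galnt, Gcnt, B3gnt, B4galt, St3gal, St8sia and Fut genes, the genes whose symbols begin with St6gal, and C1galt1 and C1galt1c1. In the RefSeq gene table, 67 protein-coding mouse genes meet that rule. Of these, 64 were measured, each by 1 transcript cluster, among 19505 gene symbols on the array, and St6gal2, St6galnac4 and St6galnac6 were not analysed here. The 64 comprised 17 GALNT genes, 2 core 1 genes, 5 GCNT, 8 B3GNT, 7 B4GALT, 6 ST3GAL, 1 ST6GAL, 4 ST6GALNAC, 6 ST8SIA and 8 FUT genes. No measured value chose them.

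The glands came from 12-week-old female C57BL6/J mice, and all groups had undergone surgery. The groups were resected day 14 and resected day 3, in which part of the submandibular salivary gland had been removed and the animal had healed for 14 or 3 days, and mock day 3, in which the operation was a sham and healing lasted 3 days. Each group had 3 biological replicates, each on its own Clariom S mouse array, a microarray that summarises short probes into 1 value per transcript cluster. The only mock glands were from day 3, so in the comparison of resected day 14 with mock the effect of resection and of the later day cannot be told apart.

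Mucin-type O-glycosylation begins when a polypeptide GalNAc-transferase of the GALNT family attaches N-acetylgalactosamine to serine or threonine. C1galt1, with its chaperone C1galt1c1, adds galactose to form core 1, GCNT enzymes add a branch, and B3GNT and B4GALT enzymes alternate to build lactosamine chains that sialyltransferases and fucosyltransferases cap. Some of the same families also build glycolipids. In salivary glands these enzymes act on secreted mucins, and in leukocytes and endothelium they make ligands of selectins and other lectins.

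Values are on the log2 scale deposited by the authors, and differences are between group means on that scale, with a standard error (SE). Same-group arrays correlated at 0.985 to 0.990 over all transcript clusters, and no array repeated another. The files hold no detection calls, so brightness was read against 5222 negative control probe sets. Their median lay between 4.41 and 4.77 on the 9 arrays and their 95th percentile between 8.21 and 8.52. The negative control median averaged 4.55 ± 0.06 in resected day 14, 4.70 ± 0.06 in resected day 3 and 4.46 ± 0.06 in mock glands (SD, n = 3 each). Of 11 serous acinar markers, Prol1, Pip and Car6 stood at the ceiling of the deposited scale (19.93) on every resected day 3 and mock array, so a change in them could not be seen, and Smr3a lay at 3.33 to 4.32 there, in the range of the negative controls. Fewer cells of a type and less RNA per cell cannot be told apart in whole-gland RNA.

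Markers of cell types moved with the day 3 group in both directions. Of the serous acinar markers, 3 of 11 fell on day 3, namely Amy1 by −1.49, Bhlha15 by −1.19 and Slc12a2 by −1.15 (adjusted p = 0.0111, 0.0386 and 0.0108), and 0 rose. Of the granular tubule markers, 4 of 8 fell, Egf by −2.94 and Klk1b16 by −2.54 among them (adjusted p = 0.00917 and 0.0236), and the list median was −0.91. Of the macrophage markers, 12 of 13 rose on day 3, and their summed level was 13.5 to 13.8 in resected day 14, 16.7 to 16.8 in resected day 3 and 12.2 to 13.4 in mock glands. Of the fibroblast and matrix markers, 8 of 10 rose, with sums of 18.2 to 18.3 in resected day 14, 18.6 to 19.2 in resected day 3 and 17.3 to 18.3 in mock glands. All 11 proliferation markers rose, with sums of 13.4 to 13.7 in resected day 14, 17.5 to 17.9 in resected day 3 and 13.5 to 15.9 in mock glands. Among the mock arrays, replicate 3 had the lowest sum of each of these 3 lists. The part of these cell types in the changes of glycosyltransferase genes described below was not tested.

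Most of the glycosyltransferase genes were dim. The bright ones included genes of initiation, core 1 formation, branching, galactose addition and sialic acid capping, and no B3GNT or FUT gene. In all, 9 genes exceeded the 95th percentile of the negative controls on every array: Galnt3, Galnt7 and Galnt10 for initiation, C1galt1 and C1galt1c1 for core 1, Gcnt2 for I branching, B4galt1 for galactose addition, and St3gal1 and St3gal4 for sialylation. Another 7 exceeded it on some arrays (Galnt1, Galnt2, Galnt11, B3gnt2, B3gnt5, B4galt6 and St6galnac2), and 48 on none. Of those 48, 21 stayed at or below the median of the negative controls on every array, among them Fut1, Fut2, Fut4, St8sia1 and Galnt12. No gene of the 64 reached the ceiling of the deposited scale at 19.93, since their values ran between 2.02 and 16.35.

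On day 3 after resection, 7 of the 64 genes rose against mock surgery and 1 fell. The genes that rose act in initiation (Galnt16), core 2 branching (Gcnt1), lactosamine extension (B3gnt2, B3gnt3), galactose addition (B4galt5, B4galt6) and polysialylation (St8sia4), and B3gnt5 fell. These 8 genes are 12.5% of the 64, where 6.27% of all 22206 transcript clusters were called in the same comparison at an adjusted p of 0.05. By direction, 7 of 64 rose, with a background of 4.92%, and 1 of 64 fell, with a background of 1.36%. After the arrays were centred on their medians, 6 of the 64 rose and 2 fell, and all clusters split into 1013 higher and 480 lower calls in place of 1092 and 301. Leaving out 1 array changed the count of called genes to 2 without resected day 3 replicate 2 or 3 and to 5 without resected day 3 replicate 1 or any one mock array. The median difference over the 64 genes was −0.00, beside −0.06 over all clusters. No ST3GAL, ST6GAL, ST6GALNAC or FUT gene passed the test on day 3.

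**Figure D1:**
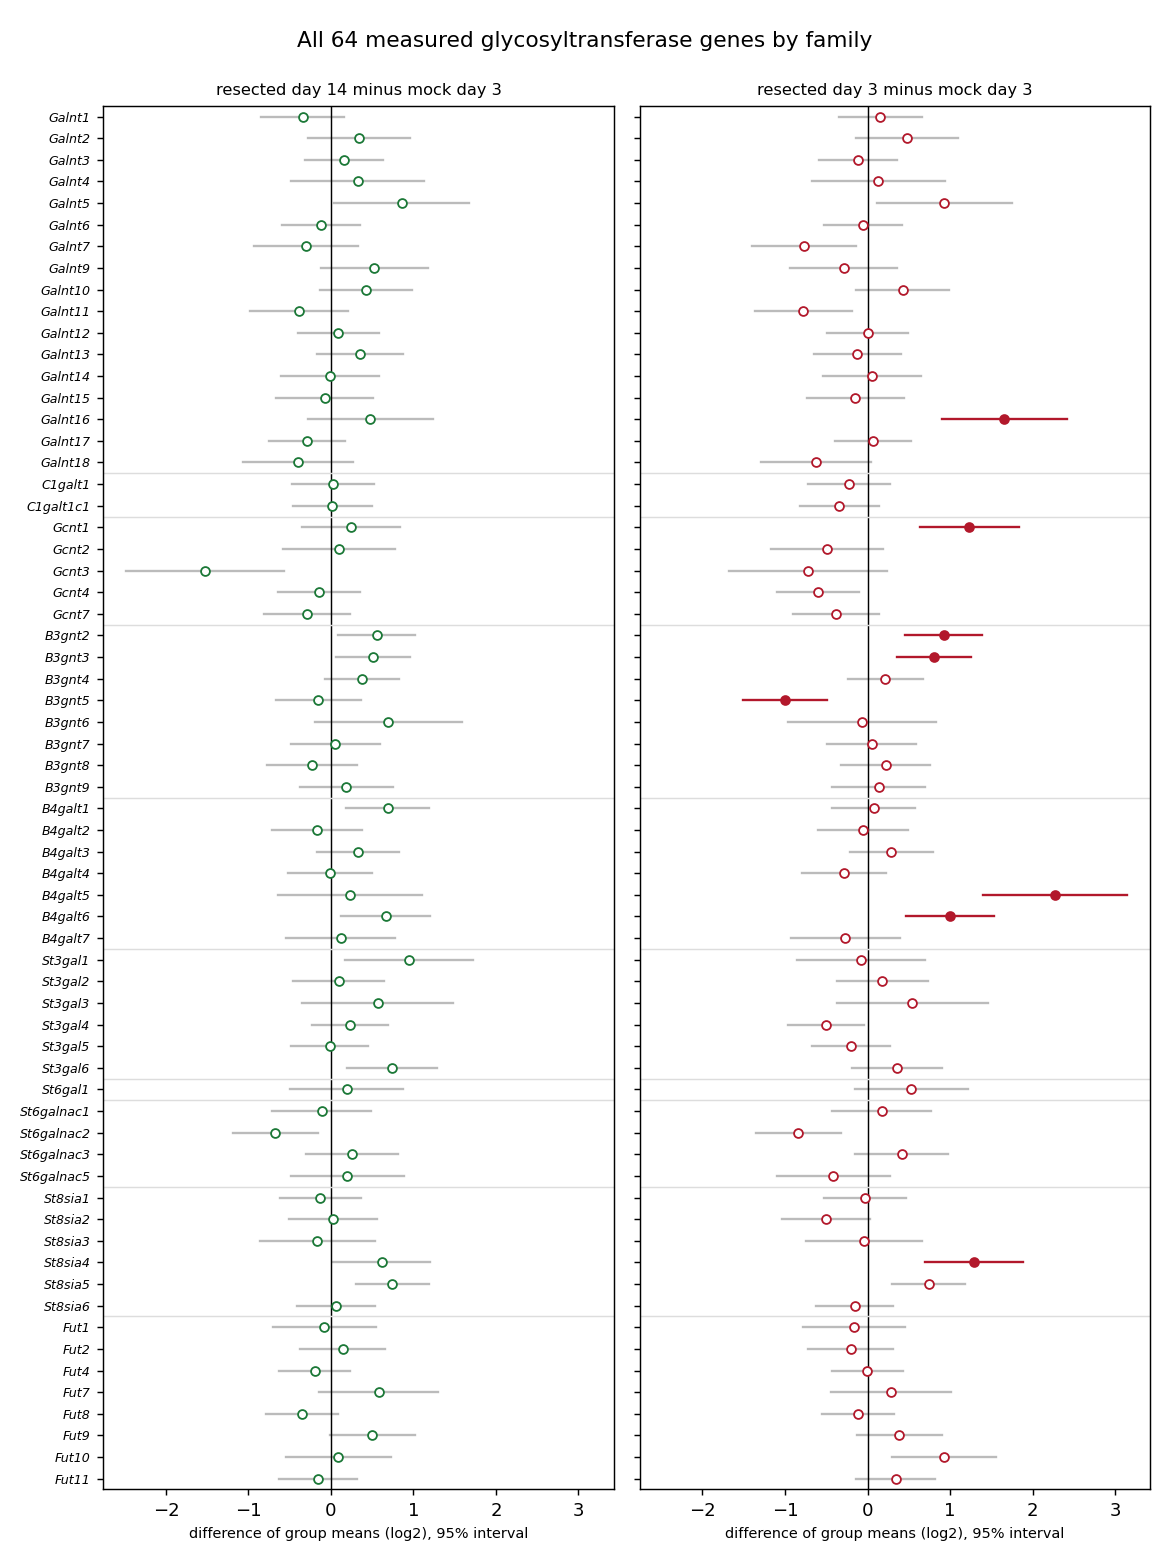
Difference of group means (log2, horizontal axis) for each of the 64 genes, grouped by family, for resected day 14 minus mock day 3 in the left panel and resected day 3 minus mock day 3 in the right panel. Points are differences, bars are 95% intervals from the moderated fit, and filled points passed an adjusted p of 0.05: 8 genes are filled on the right and 0 on the left.

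The largest difference among the 64 genes was that of B4galt5. B4galt5 and B4galt6 encode the galactosyltransferases that make lactosylceramide, the precursor of most glycosphingolipids. B4galt5 measured 4.47, 4.74 and 4.97 in the resected day 14 glands, 6.25, 6.39 and 7.66 in the resected day 3 glands and 4.58, 5.20 and 3.71 in the mock glands. All day 3 resected arrays lay above all other arrays, and the 6 others overlapped. Resected day 3 exceeded mock by 2.27 ± 0.40 (SE, n = 3 each, 95% interval 1.40 to 3.15, limma adjusted p = 0.00397). Its replicate 3 was the highest array, and without it the difference was 1.83 and the call remained. B4galt5 stayed below the 95th percentile of the negative controls on every array and exceeded their median on 7 of 9.

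B4galt6 measured 8.91, 9.35 and 9.19 in the resected day 14 glands, 9.39, 9.58 and 9.49 in the resected day 3 glands and 8.24, 8.22 and 9.01 in the mock glands. The day 3 resected arrays lay above the mock arrays without overlap, and mock replicate 3 stood apart from the other mock arrays. The day 3 difference was 1.00 ± 0.25 (SE, n = 3 each, 95% interval 0.46 to 1.53, adjusted p = 0.0297). It missed the threshold when mock replicate 1 was left out (adjusted p = 0.109), mock replicate 2 (0.105), or resected day 3 replicate 1 (0.0572), 2 (0.101) or 3 (0.0946).

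B3gnt5, which adds N-acetylglucosamine to lactosylceramide to open the lacto series of glycolipids, was the gene that fell on day 3. It measured 7.80, 8.46 and 7.96 in the resected day 14 glands, 7.07, 7.11 and 7.51 in the resected day 3 glands and 8.20, 8.44 and 8.04 in the mock glands. The day 3 resected arrays were the lowest of all 9. On day 3 it fell by 1.00 on the log2 scale (SE 0.24, n = 3 each, 95% interval −1.51 to −0.49, adjusted p = 0.0234). Leaving out mock replicate 1 or 2 moved the adjusted p to 0.0604 or 0.0828, and leaving out resected day 3 replicate 1 or 2 moved it to 0.0765 or 0.089, so the call was lost in these 4 fits.

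Among the initiating enzymes, Galnt16 was the only one of 17 to pass the test on day 3, where 6.27% of all clusters did. It measured 4.30, 3.58 and 4.34 in the resected day 14 glands, 4.73, 5.19 and 5.85 in the resected day 3 glands and 3.15, 4.26 and 3.37 in the mock glands. The resected day 3 arrays were the 3 highest, and they were also the only arrays on which Galnt16 exceeded the median of the negative controls. Resected day 3 exceeded mock by 1.66 ± 0.35 (SE, n = 3 each, 95% interval 0.90 to 2.42, adjusted p = 0.0117). It missed the threshold without mock replicate 1 (adjusted p = 0.0541) or resected day 3 replicate 3 (0.0643).

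Gcnt1 makes the core 2 branch, on which leukocytes carry selectin ligands. It measured 4.47, 4.87 and 4.35 in the resected day 14 glands, 5.21, 5.51 and 5.92 in the resected day 3 glands and 3.85, 4.35 and 4.75 in the mock glands. The resected day 3 arrays lay above all the others. Gcnt1 rose by 1.23 ± 0.28 (SE, n = 3 each, 95% interval 0.63 to 1.83, adjusted p = 0.0169), and it missed the threshold without mock replicate 1 (0.0717) or resected day 3 replicate 2 (0.052) or 3 (0.0897). The other GCNT genes, Gcnt2, Gcnt3, Gcnt4 and Gcnt7, had differences below 0 on day 3, and none of those 4 passed the test.

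Of the extension enzymes, B3gnt2, a main synthase of polylactosamine chains, and B3gnt3, which extends core 1 O-glycans, rose on day 3. B3gnt2 measured 8.08, 8.06 and 8.47 in the resected day 14 glands, 8.39, 8.62 and 8.70 in the resected day 3 glands and 7.89, 7.59 and 7.48 in the mock glands. Both resected groups lay above mock on every array, and they overlapped each other. The day 3 difference of B3gnt2 was 0.92 ± 0.22 (SE, n = 3 each, 95% interval 0.45 to 1.39, adjusted p = 0.022), and the call was lost without mock replicate 2 (0.0639) or 3 (0.0791) or resected day 3 replicate 2 (0.0773) or 3 (0.0949).

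B3gnt3 measured 5.48, 5.15 and 5.02 in the resected day 14 glands, 5.62, 5.46 and 5.47 in the resected day 3 glands and 4.56, 4.85 and 4.71 in the mock glands. Here too every resected array lay above every mock array. All 9 arrays exceeded the median of the negative controls, and none their 95th percentile. On day 3 B3gnt3 rose by 0.81 ± 0.21 (SE, n = 3 each, 95% interval 0.36 to 1.25, adjusted p = 0.0346). Of the 8 calls this one was lost most often: without any one of the mock or resected day 3 arrays the adjusted p lay between 0.0505 and 0.112.

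St8sia4 encodes a polysialyltransferase that adds long sialic acid chains to a few glycoproteins, NCAM among them. It measured 7.39, 7.01 and 7.36 in the resected day 14 glands, 7.37, 8.12 and 8.28 in the resected day 3 glands and 6.97, 6.65 and 6.29 in the mock glands. Both resected groups lay above mock on every array, and resected day 3 replicate 1 lay within the resected day 14 range. St8sia4 exceeded the median of the negative controls on all 9 arrays and their 95th percentile on none. The day 3 difference was 1.29 ± 0.27 (SE, n = 3 each, 95% interval 0.70 to 1.88, adjusted p = 0.012), and it missed the threshold without mock replicate 3 (0.0528) or resected day 3 replicate 2 (0.0567) or 3 (0.0675).

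**Figure D2:**
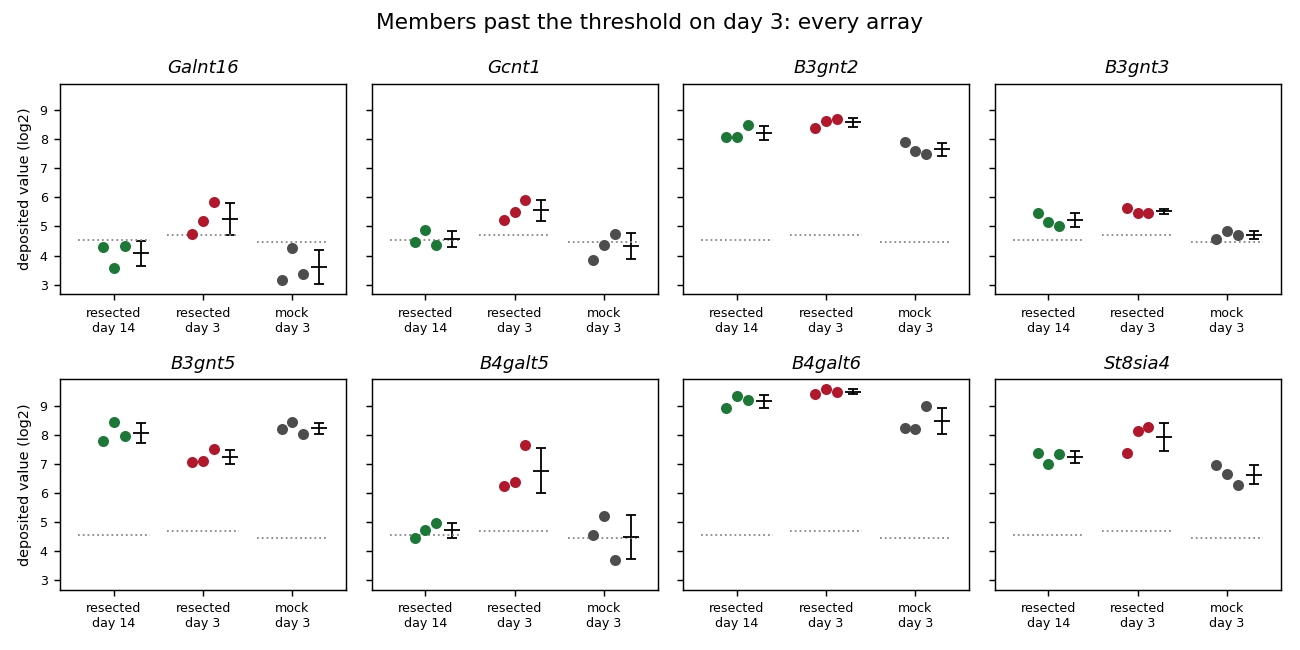
Deposited log2 value (vertical axis) of the 8 genes that passed the test on day 3, with 1 point per array and, beside the points, the group mean with its SD. Dotted lines mark the group mean of the negative control medians. B4galt5 lies close to that line in resected day 14 and mock glands and well above it in resected day 3. B3gnt2, B3gnt3, B3gnt5, B4galt6 and St8sia4 lie above it on every array.

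Promoter sequences are shown for 5 of the 8 called genes, each with a single annotated start site in RefSeq, to set the genes that moved in the same comparison side by side. They span 250 bases before to 50 bases after the start site, are taken from RefSeq (GRCm38.p6) and read 5′ to 3′ on the gene's strand. They lie at chr2:167349129-167349428 (B4galt5, minus strand), chr11:22859686-22859985 (B3gnt2, minus strand), chr8:71701751-71702050 (B3gnt3, minus strand), chr1:95667545-95667844 (St8sia4, minus strand) and chr16:19759984-19760283 (B3gnt5, plus strand). Capitals mark matches, on either strand, to the GC box of SP1 (GGGCGG) or to the core of the hypoxia element (ACGTG).
B4galt5: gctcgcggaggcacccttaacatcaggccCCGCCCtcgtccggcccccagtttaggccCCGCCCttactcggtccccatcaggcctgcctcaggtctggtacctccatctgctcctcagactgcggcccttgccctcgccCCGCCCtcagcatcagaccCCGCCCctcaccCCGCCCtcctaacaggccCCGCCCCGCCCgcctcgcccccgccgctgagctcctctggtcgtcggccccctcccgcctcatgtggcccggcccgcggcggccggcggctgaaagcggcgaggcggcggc
B3gnt2: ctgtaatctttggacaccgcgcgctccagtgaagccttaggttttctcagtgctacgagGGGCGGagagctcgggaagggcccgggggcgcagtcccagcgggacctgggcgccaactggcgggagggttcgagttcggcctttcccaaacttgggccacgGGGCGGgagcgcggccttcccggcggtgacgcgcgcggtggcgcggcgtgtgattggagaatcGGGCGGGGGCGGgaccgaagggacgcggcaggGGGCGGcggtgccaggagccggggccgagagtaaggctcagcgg
B3gnt3: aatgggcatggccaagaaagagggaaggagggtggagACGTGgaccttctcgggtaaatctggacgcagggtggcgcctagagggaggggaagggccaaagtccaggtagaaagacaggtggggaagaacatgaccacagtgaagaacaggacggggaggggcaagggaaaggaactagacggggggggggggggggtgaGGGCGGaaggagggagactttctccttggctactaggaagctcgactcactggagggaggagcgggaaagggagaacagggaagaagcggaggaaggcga
St8sia4: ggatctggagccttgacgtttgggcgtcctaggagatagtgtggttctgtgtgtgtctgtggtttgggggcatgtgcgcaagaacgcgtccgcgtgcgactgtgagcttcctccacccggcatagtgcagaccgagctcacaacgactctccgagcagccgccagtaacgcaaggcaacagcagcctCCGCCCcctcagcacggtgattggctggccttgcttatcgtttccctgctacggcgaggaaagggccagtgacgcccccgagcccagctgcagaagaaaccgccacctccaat
B3gnt5: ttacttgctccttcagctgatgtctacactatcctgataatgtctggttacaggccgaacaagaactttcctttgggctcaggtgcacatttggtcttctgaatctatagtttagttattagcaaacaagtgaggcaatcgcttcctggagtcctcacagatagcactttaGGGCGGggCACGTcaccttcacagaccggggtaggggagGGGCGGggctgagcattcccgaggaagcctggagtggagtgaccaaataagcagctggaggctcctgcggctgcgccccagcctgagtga

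B4galt5 held 7 GC boxes, a pair of them overlapping, B3gnt2 held 5, B3gnt5 held 2, and B3gnt3 and St8sia4 held 1 each. The hypoxia core was found 1 time each in B3gnt3, which rose, and B3gnt5, which fell. The base composition of these windows differed, with 75.0% G and C in B4galt5, 71.3% in B3gnt2, 61.3% in St8sia4, 60.3% in B3gnt3 and 53.3% in B3gnt5. Over the 44 of 64 genes with an entry, 37 of 61 promoters held a GC box (60.7%), compared with 35.7% of all 32851 promoters of the same length. The hypoxia core was in 21.3% of the promoters of the 44 genes and 19.6% of all promoters. Searches on both strands for an AP-1 site (TGANTCA), a STAT site (TTCNNNGAA) and a TATA box (TATAAA) found them in 6.56%, 4.92% and 1.64% of the promoters of the 44 genes, where all promoters gave 7.81%, 8.30% and 13.6%. None of these 3 motifs was in the 5 windows shown. Galnt16 and Gcnt1, called genes with 3 annotated start sites each that are not shown, held an AP-1 site in 1 of 3 windows (Galnt16) and a TATA box in 1 of 3 (Gcnt1). No window of Galnt16 or Gcnt1 held a GC box or a hypoxia core, and no window is given for the called gene B4galt6.

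Some further genes separated the day 3 resected and mock arrays without passing the test. Counting the called genes, 19 of the 64 genes did not overlap between resected day 3 and mock, or 29.7%, where 23.0% of all clusters did not overlap. Of the 19, 11 were higher (background 11.2%) and 8 lower (background 11.8%) in resected day 3. All 8 called genes are among the 19, with the 7 that rose among the 11 higher and B3gnt5 among the 8 lower. The 4 of them with the largest differences, apart from the called genes, were Fut10, St6galnac2, Galnt11 and Galnt7.

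St6galnac2, which adds sialic acid to the innermost sugar of O-glycans, measured 7.55, 7.32 and 7.65 in the resected day 14 glands, 7.55, 7.49 and 6.97 in the resected day 3 glands and 7.84, 8.29 and 8.41 in the mock glands. Every resected array of either day lay below every mock array. Its differences from mock were −0.67 ± 0.24 in resected day 14 (adjusted p = 0.488) and −0.84 ± 0.24 in resected day 3 (adjusted p = 0.0563, n = 3 each). The day 3 value passed the threshold after quantile normalization (adjusted p = 0.03), after centring the arrays on their medians (0.0385), without the dimmest clusters (0.0463) and without mock replicate 1 (0.04).

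Fut10, a FUT family member, measured 3.65, 4.07 and 4.14 in the resected day 14 glands, 4.44, 4.86 and 5.07 in the resected day 3 glands and 4.41, 3.89 and 3.28 in the mock glands. Its day 3 difference was 0.93 ± 0.29 (adjusted p = 0.0923), and without mock replicate 1 it passed the threshold (adjusted p = 0.0336). The resected day 3 arrays were the highest, by a narrow margin over mock replicate 1.

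Galnt7, an initiating enzyme that prefers peptides already carrying a sugar, measured 12.02, 11.38 and 10.94 in the resected day 14 glands, 10.54, 11.38 and 11.00 in the resected day 3 glands and 11.89, 11.63 and 11.70 in the mock glands. Galnt11, of the same family, measured 8.31, 8.82 and 9.01 in the resected day 14 glands, 8.10, 8.17 and 8.68 in the resected day 3 glands and 8.72, 9.05 and 9.51 in the mock glands. In both genes the day 3 resected arrays lay below the mock arrays, and the resected day 14 arrays overlapped mock. Their day 3 differences were −0.77 ± 0.29 for Galnt7 (adjusted p = 0.169) and −0.78 ± 0.27 for Galnt11 (adjusted p = 0.13).

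Differences from mock on day 3 ran between −0.51 and 0.54 over the 6 ST3GAL genes, between −0.84 and 0.42 over the 4 ST6GALNAC genes and between −0.20 and 0.93 over the 8 FUT genes. St6gal1, the only measured gene of its family, whose enzymes cap lactosamine with sialic acid, had a difference of 0.53 ± 0.32, and its groups overlapped (95% interval −0.15 to 1.22, adjusted p = 0.411). The 21 genes at or below the negative control median on every array had day 3 differences between −0.60 and 0.74, on values that the negative controls also reached.

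The bright genes of the core pathway did not pass the test in any comparison. Galnt3 averaged 15.38 ± 0.22 in resected day 14, 15.11 ± 0.09 in resected day 3 and 15.22 ± 0.28 in mock glands (SD, n = 3 each). The difference between resected day 3 and mock was −0.11, with a 95% interval of −0.58 to 0.36. C1galt1, the core 1 synthase, averaged 13.82 ± 0.31 in resected day 14, 13.57 ± 0.15 in resected day 3 and 13.79 ± 0.24 in mock glands. Its day 3 difference was −0.22, with an interval of −0.72 to 0.27, and that of its chaperone gene C1galt1c1 was −0.34, with an interval of −0.82 to 0.14. These intervals bound the differences of these 3 genes on day 3 to less than 1 log2 unit in either direction. Of the other bright genes, Galnt7 and St3gal4 lay lower in resected day 3 than in mock glands without overlap, and the rest overlapped mock. The St3gal4 difference was −0.51, with an interval of −0.97 to −0.05 (adjusted p = 0.221). That of Galnt7 was −0.77, with an interval of −1.40 to −0.13 (adjusted p = 0.169).

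**Figure D3:**
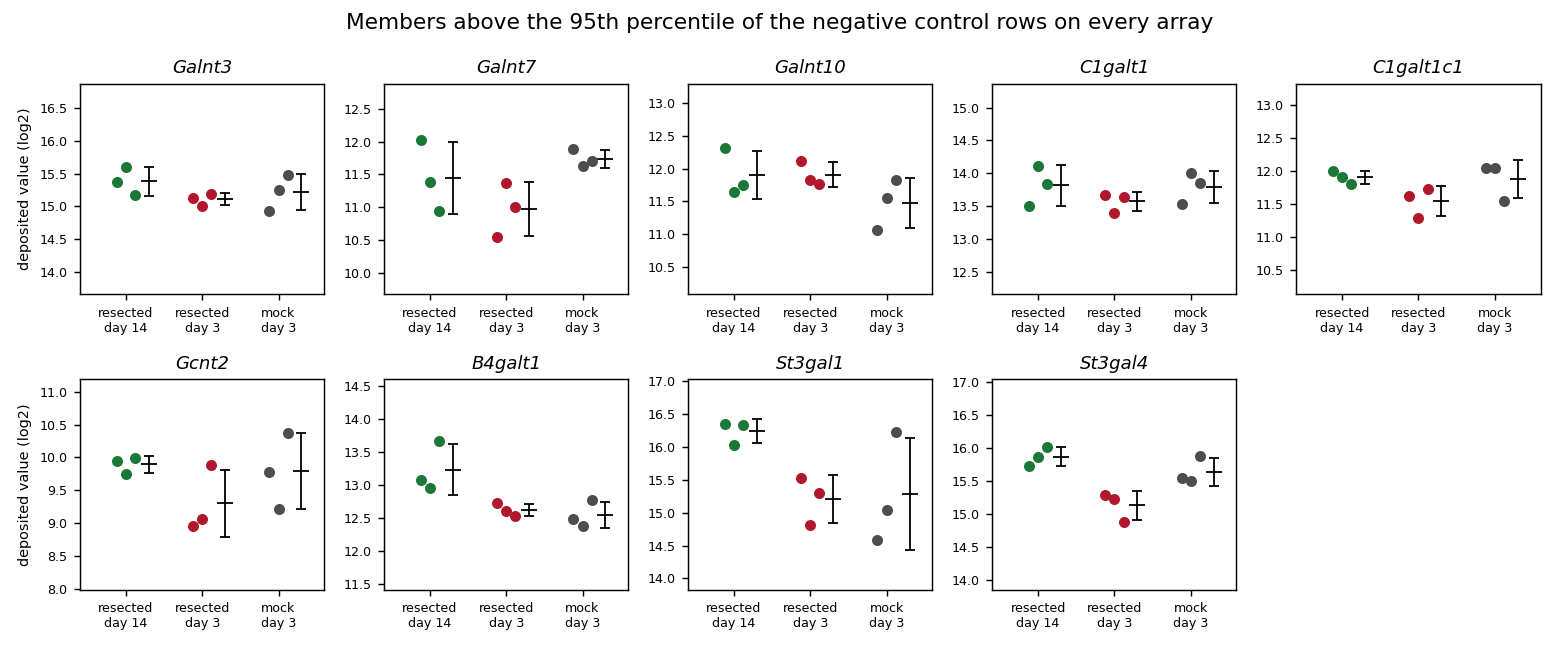
Deposited log2 value (vertical axis, each panel spanning the same number of log2 units) of the 9 genes that exceeded the 95th percentile of the negative controls on every array, with 1 point per array and the group mean with its SD beside them. St3gal1, St3gal4, B4galt1 and C1galt1c1 lie higher in resected day 14 than in resected day 3 without overlap, while Galnt3 and C1galt1 overlap across all groups.

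By day 14, 0 of the 64 genes passed the test against mock, where 0.153% of all clusters did in limma (0.0991% higher and 0.0540% lower). At an unadjusted p under 0.05 there were 11 of 64 genes (17.2%), where 8.18% of all clusters had such a p. Groups did not overlap in 10 of the 64 (15.6%), beside 13.0% of all clusters. Of those 10, 7 were higher in resected day 14, with a background of 6.03%, and 3 lower, with a background of 6.99%. The median difference over the 64 genes was 0.10, and over all clusters it was −0.00. B4galt5 differed from mock by 0.23 ± 0.40 on day 14 (95% interval −0.64 to 1.11, adjusted p = 0.923).

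The non-overlapping genes with the largest day 14 differences were St8sia5, St3gal6, B4galt1 and St6galnac2. St3gal6, which caps lactosamine chains with sialic acid, measured 8.15, 7.63 and 7.42 in the resected day 14 glands, 7.62, 7.35 and 7.07 in the resected day 3 glands and 7.29, 6.76 and 6.92 in the mock glands. The resected day 14 arrays lay above mock by a difference of 0.74 ± 0.25 (95% interval 0.19 to 1.29, adjusted p = 0.468). B4galt1, the main galactosyltransferase of lactosamine synthesis, measured 13.08, 12.95 and 13.67 in the resected day 14 glands, 12.72, 12.60 and 12.53 in the resected day 3 glands and 12.49, 12.38 and 12.77 in the mock glands. Its resected day 14 arrays were the 3 highest, with a difference from mock of 0.69 ± 0.23 (95% interval 0.18 to 1.19, adjusted p = 0.463). St8sia5, an enzyme of ganglioside synthesis, measured 3.16, 2.90 and 2.97 in the resected day 14 glands, 2.93, 2.92 and 3.18 in the resected day 3 glands and 2.21, 2.49 and 2.10 in the mock glands. It was higher in both resected groups without overlap, by 0.74 ± 0.20 on each day (adjusted p = 0.277 on day 14 and 0.0512 on day 3), but all its values lay under the median of the negative controls.

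Gcnt3, the core 2 and core 4 branching enzyme of mucin-secreting epithelium, had the lowest day 14 difference, −1.52 ± 0.44 (95% interval −2.48 to −0.57, adjusted p = 0.325). It measured 4.07, 3.21 and 3.39 in the resected day 14 glands, 4.97, 4.33 and 3.77 in the resected day 3 glands and 5.68, 3.95 and 5.60 in the mock glands. Mock replicate 2 lay within the resected day 14 range, so the groups overlapped. B3gnt6, the core 3 synthase, measured 5.35, 6.75 and 5.04 in the resected day 14 glands, 5.08, 4.22 and 5.56 in the resected day 3 glands and 5.10, 4.95 and 5.01 in the mock glands. Its resected day 14 replicate 2 stood above all other arrays, and on that same array Dcpp3, a gene of the sublingual-type mucous list, measured 19.71, beside 17.06 and 14.05 on the other resected day 14 arrays. Dcpp3 measured 16.70, 7.80 and 19.69 in the resected day 3 glands and 6.28, 8.17 and 5.80 in the mock glands, and its part in the spread of mucin-synthesis genes was not tested. The summed level of that list, Dcpp3 included, was 17.47, 20.27 and 18.16 on the resected day 14 arrays. It was 17.30, 15.42 and 19.85 on the resected day 3 arrays and 18.24, 17.55 and 17.69 on the mock arrays. Of the 10 measured genes of the list, 0 rose and 0 fell against mock on either day. In each group, 6 of them averaged at or below the negative control median. Smgc, of the same list, was lower in resected day 3 (15.67, 15.36 and 16.60) than in mock glands (18.23, 17.53 and 17.66).

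Between the resected days, 1 of the 64 genes passed the test, or 1.56%, where 6.28% of all clusters did. B4galt5 was lower on day 14 than on day 3 by −2.04 ± 0.40 (SE, n = 3 each, 95% interval −2.92 to −1.17, adjusted p = 0.00757). This call held without each of the 9 arrays in turn, with differences between −2.30 and −1.59. Downward calls were 4.88% of all clusters in this comparison and upward calls 1.40%. Because both comparisons use the resected day 3 arrays, the values of B4galt5 in them are not independent.

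Groups did not overlap between the resected days in 16 of 64 genes (25.0%), the background being 25.4%, with 7 higher (background 12.9%) and 9 lower (background 12.5%) on day 14. Galnt16 was lower on day 14 by −1.18 ± 0.35 (adjusted p = 0.0695) and Gcnt1 by −0.99 ± 0.28 (adjusted p = 0.0535), and B3gnt5 was higher by 0.84 ± 0.24 (adjusted p = 0.0546). All 3 missed the threshold. With array weights in the fit each of them passed it, at an adjusted p of 0.0436 for Galnt16, 0.0321 for Gcnt1 and 0.0388 for B3gnt5. Galnt16 also passed without mock replicate 2 (0.0436) or resected day 3 replicate 1 (0.0398), and Gcnt1 without mock replicate 1 (0.0401) or 3 (0.0401) or resected day 3 replicate 1 (0.0429).

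St3gal1, which caps the galactose of core 1 with sialic acid, measured 16.35, 16.02 and 16.34 in the resected day 14 glands, 15.53, 14.81 and 15.30 in the resected day 3 glands and 14.58, 15.05 and 16.23 in the mock glands. The resected days did not overlap, while the mock arrays spanned both. Its difference between resected days was 1.02 ± 0.36 (95% interval 0.25 to 1.80, adjusted p = 0.129), and it passed the threshold without mock replicate 3 (0.0278) and with only the groups compared in the fit (0.0311). St3gal4, which caps lactosamine, measured 15.73, 15.86 and 16.01 in the resected day 14 glands, 15.29, 15.23 and 14.88 in the resected day 3 glands and 15.54, 15.49 and 15.88 in the mock glands. It too separated the resected days, by 0.73 ± 0.21 (95% interval 0.27 to 1.20, adjusted p = 0.0638).

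The enzymes depend on sugar donors. Of 20 measured genes of donor sugar synthesis and turnover, 2 rose on day 3 (10.0%, where 4.92% of all clusters rose) and 0 fell. None of the others passed the test, Gfpt1 (−0.57), Nans (0.01), Cmas (−0.22) and Gmds (0.42) among them. Npl, which breaks down sialic acid, rose by 1.62 ± 0.28 (adjusted p = 0.0035), and Renbp, an epimerase of N-acetylglucosamine, by 1.81 ± 0.42 (adjusted p = 0.0193). Renbp missed the threshold without mock replicate 1 or 3 or resected day 3 replicate 2 or 3, with an adjusted p of up to 0.084. Gne, the rate-limiting enzyme of sialic acid synthesis, measured 18.69, 18.55 and 18.71 in the resected day 14 glands, 18.46, 18.30 and 18.08 in the resected day 3 glands and 18.22, 17.52 and 18.89 in the mock glands. Resected day 3 overlapped mock, with a difference of 0.07 ± 0.30 (adjusted p = 0.938). None of 10 transporters of donor sugars passed the test on day 3, the CMP-sialic acid transporter Slc35a1 among them (−0.35 ± 0.25, adjusted p = 0.513).

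Among 27 other genes that branch or extend glycans, Lfng, which elongates O-fucose on Notch receptors, was the only call on day 3. It measured 5.79, 6.02 and 5.90 in the resected day 14 glands, 7.31, 7.42 and 7.20 in the resected day 3 glands and 5.76, 5.83 and 5.39 in the mock glands. The resected day 3 arrays stood above all others, by 1.65 ± 0.20 over mock (adjusted p = 0.000328). None of 11 sulfotransferase genes passed the test on day 3. Of 10 sialidase and glycosidase genes, Cmah, which converts acetylated to glycolylated sialic acid, rose by 1.64 ± 0.34 (adjusted p = 0.0113) and Hexa, a lysosomal hexosaminidase, by 1.07 ± 0.27 (adjusted p = 0.0312). Without resected day 3 replicate 3 neither of those 2 passed. Hexa also missed the threshold without mock replicate 1 or 3 (adjusted p of up to 0.131 over these fits) and Cmah without mock replicate 2 (up to 0.0623).

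Of 24 mucin-type acceptor genes, 3 rose on day 3 (12.5%, beside 4.92% of all clusters) and 1 fell (4.17%, beside 1.36%). A change in Prol1 and Mucl2 could not be seen, since both stood at the ceiling of 19.93 on all resected day 3 and mock arrays. Selplg, the leukocyte scaffold of selectin ligands whose glycans need Gcnt1, measured 7.30, 7.08 and 7.79 in the resected day 14 glands, 9.45, 9.86 and 9.98 in the resected day 3 glands and 7.38, 6.70 and 6.90 in the mock glands. The resected day 3 arrays stood clear of the others, and the difference from mock was 2.77 ± 0.26 (adjusted p = 4.58e-05). Pdpn rose by 2.21 ± 0.45 (adjusted p = 0.00952) and Cd34, a sialomucin, by 1.53 ± 0.40 (adjusted p = 0.0377), and without resected day 3 replicate 3 the call of Pdpn was lost (0.0521). Cd34 kept its call in only 2 of the 9 left-out fits, those without mock replicate 1 or resected day 3 replicate 1, with an adjusted p of up to 0.171 in the others. Muc13, a membrane mucin of epithelia, fell by 1.83 on the log2 scale with an SE of 0.33 (adjusted p = 0.00454). Smgc, a secreted salivary protein gene that is also on the sublingual-type mucous list, measured 15.33, 18.63 and 18.07 in the resected day 14 glands. It measured 15.67, 15.36 and 16.60 in the resected day 3 glands and 18.23, 17.53 and 17.66 in the mock glands. Its day 3 difference of −1.93 ± 0.65 missed the threshold (adjusted p = 0.113), although the day 3 groups did not overlap.

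Of 20 glycan-binding lectin genes, 5 rose on day 3 (25.0%, beside 4.92% of all clusters) and 0 fell, with a list median of 0.26, beside −0.06 over all clusters. They were the galectins Lgals1, at 3.42 ± 0.30 (adjusted p = 2.28e-05), Lgals3, at 1.95 ± 0.35 (0.00446), and Lgals9, at 1.54 ± 0.31 (0.00866), and the leukocyte lectins Clec4n, at 2.50 ± 0.34 (0.000648), and Siglec1, at 1.74 ± 0.26 (0.00137). All 5 kept their calls without each array in turn. Clec4n and Siglec1 are known from macrophages and other myeloid cells. Other lectins of leukocytes on the list did not pass the test. Their differences were below 0 for Siglece (−0.53) and Siglech (−0.42). They were above 0 for Mgl2 (0.98), Cd33 (0.80), Clec10a (0.71), Siglecf (0.40), Cd22 (0.28) and Siglecg (0.19). The macrophage, fibroblast and proliferation sums given above were higher on the same arrays, and their part in the lectin and acceptor values was not tested. On day 14, 0 genes of the 7 lists passed the test against mock.

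Between the resected days, 16 of the 122 measured genes of the 7 lists passed the test (13.1%, beside 6.28% of all clusters). Of these, 4 were higher on day 14 (3.28%, beside 1.40%) and 12 lower (9.84%, beside 4.88%). All 3 acceptor genes and all 6 lectin genes called there were lower on day 14, Lgals1 by −3.35 ± 0.30 (adjusted p = 2.77e-05) and Selplg by −2.37 ± 0.26 (adjusted p = 0.000104) among them, and so was Lfng, by −1.41 ± 0.20 (adjusted p = 0.000888). Abo, which completes blood group A and B antigens, measured 6.90, 6.30 and 7.05 in the resected day 14 glands and 5.28, 5.26 and 5.28 in the resected day 3 glands. In the mock glands it measured 6.59, 6.44 and 5.62. Resected day 14 overlapped mock, with a difference of 0.53 (adjusted p = 0.661). Resected day 3 lay below mock without overlap, by −0.95, and missed the threshold (adjusted p = 0.0704). Between the resected days Abo was higher on day 14 by 1.48 ± 0.28 (adjusted p = 0.00578), and this call held without each of the 9 arrays in turn. The other upward calls were Slc35c2 (adjusted p = 0.0423), B4galnt3 (0.0495) and Chst8 (0.0482). They were lost in 6, 6 and 8 of the 9 left-out fits. Some downward calls were lost too, in up to 5 of these fits (Pdpn and Lgals9).

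**Figure D4:**
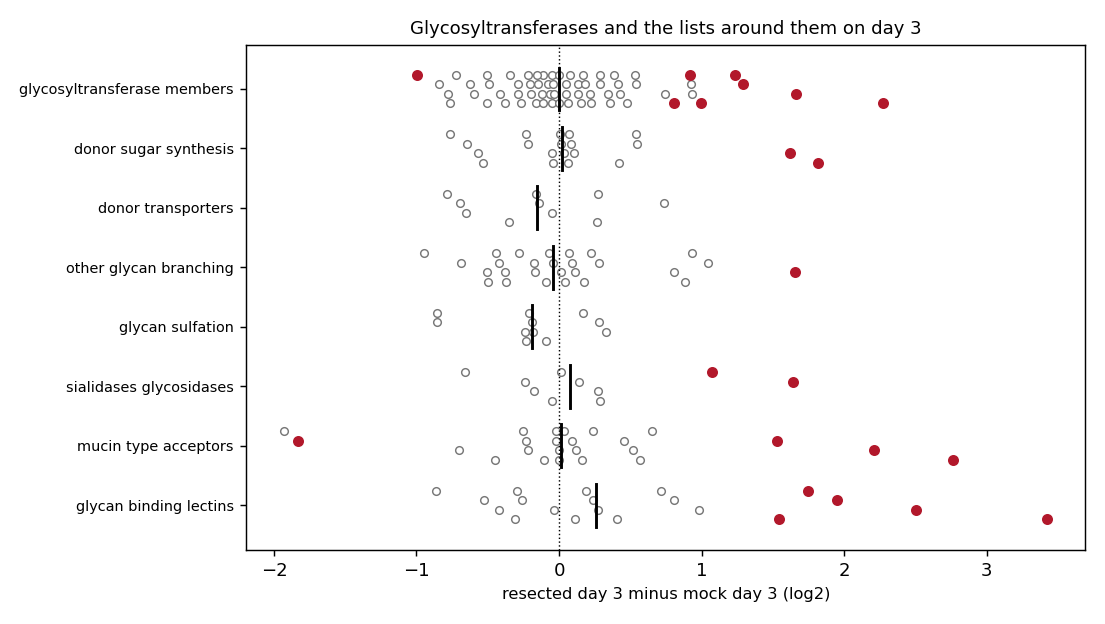
Resected day 3 minus mock day 3 difference (log2, horizontal axis) for the 64 glycosyltransferase genes and the 7 lists of pathway genes around them. Each circle is a gene, filled where it passed an adjusted p of 0.05, and vertical bars are list medians. Most circles lie around 0, and the filled circles lie to the right except B3gnt5 and Muc13.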

How the data were processed

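Per the labels, total RNA of 9 submandibular glands was labelled by the WT Plus protocol and hybridised to Clariom S arrays. The deposited values are log2 summaries per transcript cluster, which the authors produced by RMA (background correction, normalization between arrays, probe summary) in Transcriptome Analysis Console 4.0, per the submitters' processing notes and design text. The genome build of the array annotation is not given in the sources used here. The scale runs up to 19.93, so a log2 difference is not a calibrated fold change.

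After 6640 control probe sets were set aside, 22206 transcript clusters remained for limma (version 3.58.1, under R 4.3.3). All 9 arrays were fitted together with a mean per group, moderated variances (6 residual and 6.63 prior degrees of freedom), 3 comparisons and Benjamini-Hochberg adjustment over all clusters within each. A gene was called at an adjusted p of 0.05. The fit was tested on simulated data. Symbols came from the platform's probe annotation and RefSeq names of GRCm38.p6, by the cluster with the highest mean. The 8 called genes are given in full, with up to 4 further non-overlapping genes of largest difference in each comparison. Of each pathway list, up to 4 called genes by size were to be named. Gne, Slc35a1, Smgc, Dcpp3, Gcnt3, B3gnt6, St6gal1, St3gal4, Lgals9, Galnt3, C1galt1, C1galt1c1 and the uncalled leukocyte lectins were singled out after their values were seen. The members, the lists and these rules were chosen with earlier results of these data known. Alternatives were quantile normalization, median centring, a filter on the dimmest 30%, a replicate block, robust moderation, array weights, fitting only the groups compared, a minimum difference of 1 and leaving out each array. The number of arrays limits the precision.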

Additional observations from a re-analysis of the deposited data

Results flagged for a closer look

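B4galt5 differed between the resected days when the days were compared directly: its difference from mock was 0.23 on day 14 and 2.27 on day 3, and the difference between them, resected day 14 minus resected day 3, was −2.04 (limma adjusted p = 0.00757, n = 3 each). Its resected day 3 arrays (6.25, 6.39 and 7.66) lay above the resected day 14 arrays (4.47, 4.74 and 4.97).

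The negative control probe sets, which enter no comparison of genes, were brighter in resected day 3 than in mock glands. Their median was 4.65, 4.77 and 4.69 on the resected day 3 arrays and 4.44, 4.41 and 4.52 on the mock arrays, a difference of 0.247 (two-sided exact permutation test, p = 0.1, the smallest that 3 against 3 arrays allow). Of the genes called on day 3, Galnt16 exceeded the negative control median on 3 of the 9 arrays and Gcnt1 on 5, with day 3 differences of 1.66 and 1.23. The part of the control shift in them was not tested.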

How the results depend on the processing

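No called gene changed direction under any setting run. On day 3 the number of called genes of the 64 was 8 (7 up, 1 down), 10 after quantile normalization (8 up, 2 down), 8 after median centring (6 up, 2 down) and 4 with a minimum difference of 1 (4 up); leaving out 1 array gave 2 to 8, with 2 left without resected day 3 replicate 2 or 3. Their median difference of −0.00 became −0.0750 after median centring and 0.103 without the dimmest clusters, and lay between −0.0354 and 0.0450 with 1 array left out. Over all clusters 1393 were called on day 3 (1092 up, 301 down), with 973 up and 452 down after quantile normalization, 1013 up and 480 down after median centring, and 850 to 1307 in all without 1 array. Against mock on day 14, the 64 genes gave 0 calls in every left-out fit, and their median lay between 0.0277 and 0.158. All clusters gave 20 to 58 there, beside 34, and the pathway lists 0 to 1. Between the resected days the 1 call of the 64 genes became 3 after quantile normalization, 2 after median centring, 3 without the dimmest clusters, 2 with the replicate block, 2 with robust moderation, 5 with array weights and 3 with only the groups compared, and lay between 1 and 3 with 1 array left out. Gcnt1 was added under 5 of these settings and B3gnt5 under 4. The median of the 64 genes there, 0.06, became 0.0182 after quantile normalization and 0.119 after median centring, and lay between 0.0426 and 0.0993 with 1 array left out. All clusters gave 874 to 1429 there, beside 1394. The pathway lists had 14 calls on day 3 and 9 to 15 with 1 array left out, and 16 and 11 to 15 between the resected days. Same-numbered arrays did not deviate together (correlations between −0.087 and 0.051), and differently numbered arrays spanned a like range (−0.061 to 0.131). With deviations from means of 3 arrays, this cannot tell whether the numbers pair the glands. A replicate block gave 7 calls on day 3. B4galt5 kept both its calls in all 9 left-out fits, at 1.83 to 2.63 on day 3. B4galt6 lost its call with only the groups compared (adjusted p = 0.0606), and B3gnt3 there (0.0524), after median centring (0.0579) and with the replicate block (0.063). The filter on the dimmest 30% of clusters kept 46 of the 64 genes, all 8 called on day 3 included. For the dim others, the signal over background limits what can be seen.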
